A study of Mus musculus with 6 samples.

Results

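The genes described here are the matrix proteases of the mouse genome and the inhibitors that hold them in check, measured in MSTN-KO and WT myoblasts. They were chosen by gene symbol alone, as the Mmp, Timp, Adam and Adamts families of the GENCODE M21 annotation, and 55 of the 14548 genes in the files belong to them. These are 16 matrix metalloproteinases (MMPs), 4 tissue inhibitors of metalloproteinases (TIMPs), 17 ADAMs, 13 ADAMTS proteases and 5 ADAMTS-like genes. The annotation holds 84 genes with such symbols, and those absent from the files could not be analysed here.

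C2C12 is a mouse myoblast line that can fuse into muscle fibres in culture, and the RNA came from such cells grown in medium with fetal bovine serum. There were 3 libraries of unedited cells (WT) and 3 of a line named C11 (MSTN-KO), in which exon 3 of *Mstn*, the gene of the muscle growth inhibitor myostatin, had been targeted with CRISPR/Cas9. The MSTN-KO group is 1 edited line, so the effect of the edit and other differences of that line cannot be told apart. The sample labels do not say whether the replicates were separate cultures, so the p-values measure only the spread between these libraries, which may be technical. C11 stands in the strain label of all 6 libraries, so they were grouped by the genotype label.

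MMPs are zinc proteases that cut collagens, fibronectin and other matrix proteins, and myoblasts use them to move through the basement membrane and to reach each other before they fuse. Each TIMP binds the active site of an MMP and blocks it, and TIMP3 also blocks ADAM17 and several ADAMTS proteases. ADAMs sit in the cell membrane, where many of them release growth factors and receptor ectodomains, while others have lost the catalytic site and act in adhesion. ADAMTS proteases are secreted and either trim procollagens or cut proteoglycans such as versican and aggrecan. ADAMTS-like proteins share the ancillary domains of this family and have no protease domain.

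Expression was read as FPKM, the fragments of a gene scaled to the length of the gene and to the mapped fragments of the library, so levels are per length and can be set side by side between genes. The FPKM values of a library summed to between 723705 and 764524 in WT and to between 856314 and 999579 in MSTN-KO. The absolute depth is unknown. The steps between low FPKM values gave depths of 0.86 to 1.12 relative to WT replicate 1. *Mstn* itself was between 0 and 0.0586 FPKM in the 6 libraries, too low for a check of the labels. All directions therefore rest on the genotype label. All 5 myoblast markers in the files were detected, of which *Chrna1* (log2 fold change -1.16), *Des* (-0.96) and *Myod1* (-0.58) were downregulated in MSTN-KO and *Pax7* (0.64) was upregulated. *Pax7* kept an adjusted p under 0.05 in 6 of the 16 alternative fits listed under processing, and *Chrna1*, *Des* and *Myod1* kept it in all 16. The 4 endothelial markers and *Plin1* of adipocytes were under 0.1 FPKM in every library. Of the macrophage markers *Csf1r* was under 0.1 FPKM and *Cd68* was at 0.702 to 2.39 FPKM. Of the fibroblast markers *Pdgfra* was under 1 FPKM and *Dcn* was at 0.444 to 2.83 FPKM, lower in MSTN-KO (-0.73). Of the epithelial markers *Krt14* was at 24.6 to 52.1 FPKM and the others in the files were under 1 FPKM. Of the smooth muscle markers *Smtn* was at 37.1 to 49.8 FPKM, *Cnn1* was at 1.18 to 5.40 FPKM and lower in MSTN-KO (-1.04), and *Myh11* was under 0.1 FPKM. Markers of differentiating muscle (*Myog*, *Mylpf* and others, 8 genes in the files) summed to 731, 687 and 198 FPKM in WT replicates 1, 2 and 3 and to 29.6, 42.4 and 49.6 FPKM in the MSTN-KO replicates. All 7 of them that were tested were downregulated in MSTN-KO. WT replicate 3 therefore stood apart from the other WT libraries, and the part of any of these marker genes in the results on proteases was not tested. In bulk RNA, fewer cells of a type and less RNA per cell cannot be told apart.

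The groups were compared with limma on log2(FPKM + 1), on which the change of a gene with low FPKM is understated. The fit covered 10837 genes, each of which reached 1 FPKM in some library. Of the 55 family genes, 29 passed this filter. The other 26 did not, and their highest value in any library was 0.912 FPKM. Of the 29, 23 passed in both groups. *Adam23*, *Adamts2*, *Adamts5*, *Adamtsl3* and *Mmp19* passed only through MSTN-KO libraries and *Mmp23* only through a WT library, so a higher or lower value in that group was partly fixed by the filter for these 6 genes.

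Differentially expressed genes (DEGs) were those with a log2 fold change beyond 1 in either direction whose unadjusted p was under 0.05. The upregulated DEGs held 5 of the family genes, *Adam23*, *Adamts2*, *Adamts1*, *Mmp2* and *Mmp19*. Over all tested genes 1.21% were upregulated DEGs. Of the 23 family genes that passed the filter in both groups, 2 were upregulated DEGs (*Adamts1* and *Mmp2*). The share of upregulated DEGs over all such genes is not given here. Of the downregulated DEGs 1 belonged to the families, *Adamts4*, against a background of 2.3%. With a Benjamini-Hochberg adjusted p under 0.05 and no limit on the fold change, 7 family genes were higher in MSTN-KO (background 8.78%) and 2 were lower (background 8.96%). *Adamtsl4* and *Adamts5* were added on the higher side and *Mmp23* on the lower side. Among the 23 genes that passed the filter in both groups, 3 were higher (*Adamts1*, *Mmp2*, *Adamtsl4*; background in such genes 8.54%) and 1 was lower (*Adamts4*; background 7.71%). The median log2 fold change of the 29 was -0.00862, beside -0.000781 over all tested genes, with 14 above 0 and 15 below. The median of its absolute size was 0.36, beside 0.23 over all tested genes. The MSTN-KO values lay above all WT values in 9 of the 29 (background 19.3%) and below them in 5 (background 18.1%). Among the 23 genes that passed the filter in both groups, they lay above in 5 and below in 4. The 19.3% and 18.1% cover all tested genes, and the shares over genes past the filter in both groups are not given here.

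**Figure D1:**
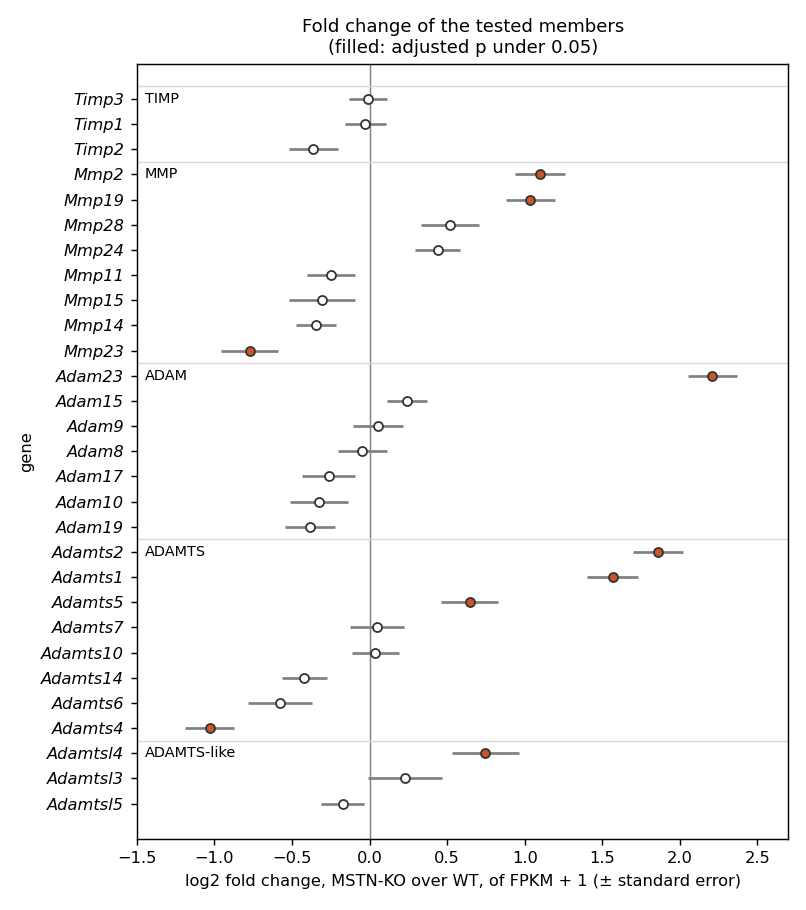
Log2 fold change (MSTN-KO against WT, log2(FPKM + 1) scale) of the 29 tested family genes, grouped by family, with bars of 1 standard error from limma; filled points have an adjusted p under 0.05. *Adam23* at 2.21, *Adamts2* at 1.86 and *Adamts1* at 1.57 lie farthest to the right, and *Adamts4* at -1.03 farthest to the left.

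*Timp1* and *Timp2* had the highest levels of the family genes in all 6 libraries, and none of the 3 tested TIMPs passed the test. *Timp1* encodes a broad inhibitor of soluble MMPs. It was at 670, 671 and 687 FPKM in WT and at 639, 593 and 770 FPKM in MSTN-KO. The groups overlapped, and the log2 fold change was -0.03 (SE 0.13, limma adjusted p = 0.908). *Timp2*, whose protein both inhibits MMPs and takes part in the activation of pro-MMP2 at the cell surface by MMP14, was at 464, 399 and 302 FPKM in WT and at 281, 289 and 322 FPKM in MSTN-KO. WT replicate 3 lay within the MSTN-KO range, and the log2 fold change was -0.36 (SE 0.16, adjusted p = 0.126). Without WT replicate 3 it was -0.53 with an adjusted p of 0.0339. *Timp3*, the inhibitor that stays bound to the matrix, was at 44.5, 43.4 and 48.3 FPKM in WT and at 44.9, 48.8 and 41.7 FPKM in MSTN-KO (log2 fold change -0.01, SE 0.12, adjusted p = 0.970). *Timp4* did not exceed 0.0811 FPKM in any library and was not tested. Scaling every library to the same FPKM sum moved the median over all tested genes to a log2 fold change of -0.26, and under that scaling *Timp1* (-0.31, adjusted p = 0.0204) and *Timp2* (-0.65, adjusted p = 0.0130) passed the test. Both also passed under quantile normalization (*Timp1* -0.27, adjusted p = 0.0372, and *Timp2* -0.57, adjusted p = 0.0231), which moved the median over all tested genes to 0.023, and *Timp2* passed after the correction for length and GC content (-0.43, adjusted p = 0.0347).

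The summed TIMP level was 1178, 1113 and 1037 FPKM in WT and 965, 931 and 1134 FPKM in MSTN-KO. The summed MMP level was 183, 161 and 136 FPKM in WT and 152, 151 and 145 FPKM in MSTN-KO. The ratio of the TIMP sum to the MMP sum was 6.44, 6.93 and 7.64 in WT and 6.35, 6.15 and 7.80 in MSTN-KO. In each of these 3 quantities the groups overlapped, and none was tested. *Timp1* supplied 56.9%, 60.3% and 66.3% of the TIMP sum in WT and 66.2%, 63.7% and 67.9% in MSTN-KO.

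**Figure D2:**
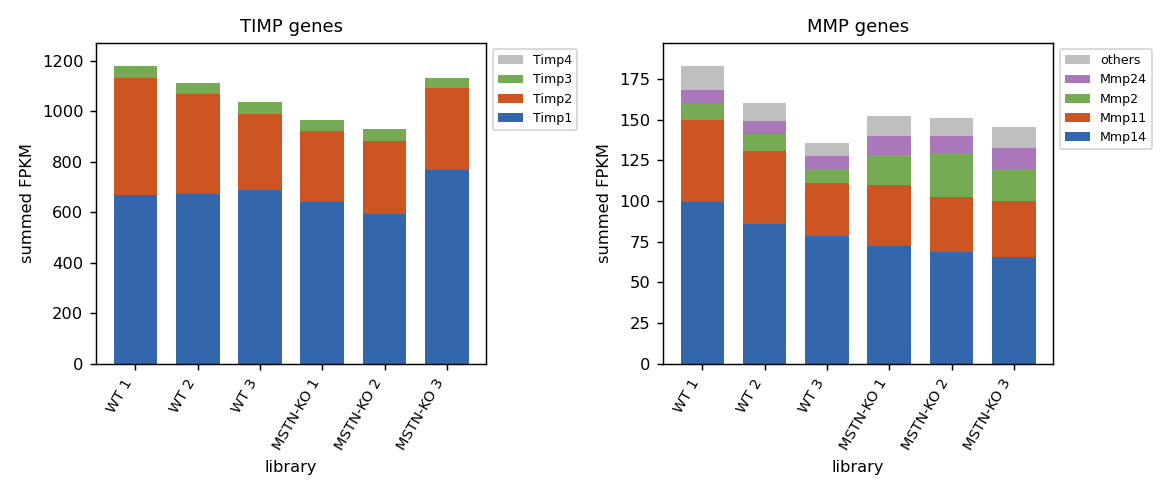
Summed FPKM of the TIMP genes (left) and of the MMP genes (right) in each of the 6 libraries, stacked by gene. *Timp1* and *Timp2* make up nearly all of the TIMP sum, and the *Mmp2* section of the MMP bars is 18.8, 27.5 and 19.1 FPKM in the MSTN-KO libraries against 8.54 to 10.2 FPKM in WT.

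Among the MMPs, the secreted gelatinase *Mmp2* and the secreted *Mmp19* were upregulated in MSTN-KO, and the membrane-bound *Mmp14* made up the largest share of the MMP sum in all 6 libraries. *Mmp2* (ENSMUSG00000031740, chromosome 8, 92827291 to 92853420, plus strand, GRCm38) cuts denatured collagen and type IV collagen of the basement membrane. Its expression was 9.77, 10.2 and 8.54 FPKM in WT and 18.8, 27.5 and 19.1 FPKM in MSTN-KO. Every MSTN-KO library was above every WT library, and the ratio of the group means was 2.29. The log2 fold change was 1.10 (SE 0.16, adjusted p = 0.000589). It ranked 101 among the rises of all tested genes and stayed between 0.93 and 1.19 when any 1 library was left out.

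*Mmp14* (ENSMUSG00000000957, chromosome 14, 54431612 to 54445364, plus strand) encodes MT1-MMP, the membrane protease that activates pro-MMP2 and cuts fibrillar collagen. It was at 99.5, 85.7 and 78.7 FPKM in WT and at 72.6, 68.4 and 65.4 FPKM in MSTN-KO. The groups did not overlap, and the log2 fold change was -0.34 (SE 0.13), with an adjusted p of 0.0775 that missed the threshold. The 367 tested genes of chromosome 14 had a median of -0.29. It passed under quantile normalization (0.0204), scaling by percentile 75 (0.0350), scaling to a common sum (0.00742) and the correction for length and GC content (0.0162). *Mmp14* took 54.4%, 53.4% and 58.0% of the summed MMP level in WT and 47.7%, 45.1% and 45.0% in MSTN-KO, whereas *Mmp2* took 5.34%, 6.35% and 6.29% in WT and 12.3%, 18.2% and 13.2% in MSTN-KO. The shares follow from the same FPKM values and were not tested.

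*Mmp19* (ENSMUSG00000025355, chromosome 10, 128790910 to 128800824, plus strand), which cuts basement membrane proteins, was at 0.665, 0.708 and 0.720 FPKM in WT and at 2.56, 2.35 and 2.54 FPKM in MSTN-KO. Replicates of a group lay close together, and the log2 fold change was 1.04 (SE 0.16, adjusted p = 0.000701). The gene overlaps *Tmem198b* on the opposite strand, which was also higher in MSTN-KO, and the sources used here do not say whether strand was used in counting. *Mmp23* (ENSMUSG00000029061, chromosome 4, 155650655 to 155653384, minus strand) was at 0.860, 1.15 and 0.560 FPKM in WT and at 0.10, 0 and 0.136 FPKM in MSTN-KO. It was downregulated (log2 fold change -0.77, SE 0.18, adjusted p = 0.0122), and without WT replicate 2, the library that carried it past the filter, the adjusted p was 0.0665. Its mean was under the level required of named genes, and it is given because it was 1 of only 2 lower members.

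The other MMPs past the filter did not pass the test. *Mmp11*, a stromelysin with few known matrix targets, was at 50.5, 45.0 and 32.7 FPKM in WT and at 37.1, 33.9 and 34.7 FPKM in MSTN-KO (log2 fold change -0.25, adjusted p = 0.283). The membrane-type *Mmp15* was at 3.28 to 7.38 FPKM in WT and 3.51 to 4.34 FPKM in MSTN-KO. *Mmp24*, also membrane-type, was at 8.05 to 8.81 FPKM in WT and at 10.04 to 13.5 FPKM in MSTN-KO (0.44, adjusted p = 0.0546), and *Mmp28*, or epilysin, was at 2.22 to 4.41 FPKM in WT and 4.97 to 5.36 FPKM in MSTN-KO (0.52, adjusted p = 0.0738). The groups did not overlap in *Mmp24* and *Mmp28*, whose values were close to the threshold. These 4 genes and the MMPs above account for the 8 tested MMPs.

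**Figure D3:**
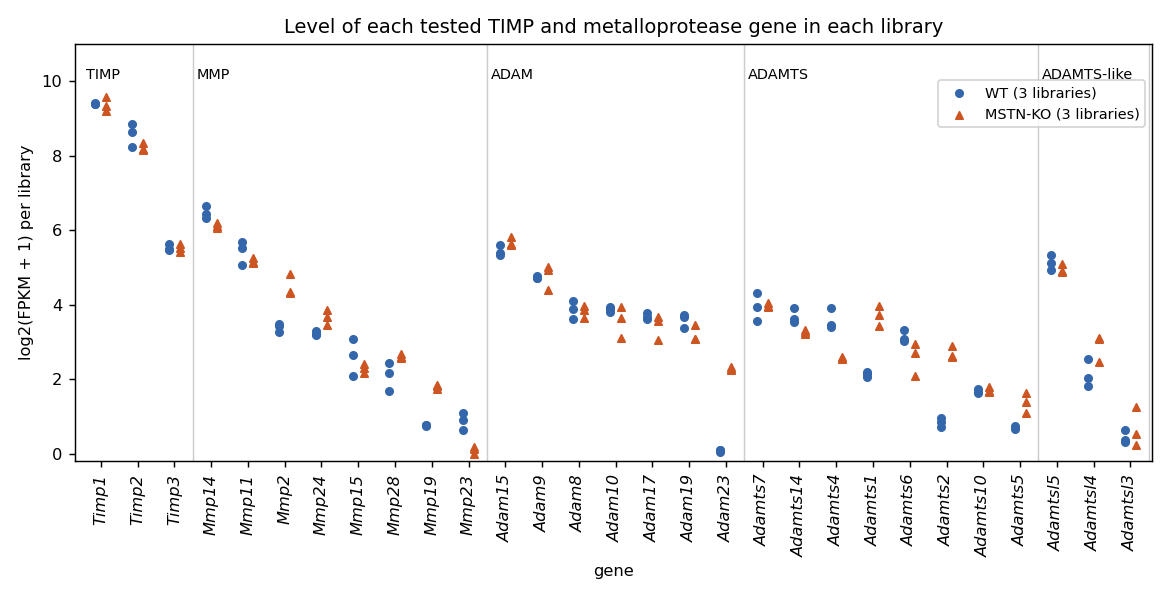
Level of each of the 29 tested family genes in each library as log2(FPKM + 1), with circles for the 3 WT and triangles for the 3 MSTN-KO libraries, grouped by family. *Timp1* and *Timp2* lie highest, and the groups are farthest apart in *Adam23* (0.0318 to 0.0705 FPKM in WT and 3.77 to 4.03 FPKM in MSTN-KO).

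The remaining 8 MMPs stayed under the filter. They include the inducible stromelysins and collagenase of a cluster on chromosome 9, *Mmp3* (0 to 0.0556 FPKM in the 6 libraries), *Mmp10* and *Mmp13* (0 to 0.0416 FPKM), and the gelatinase *Mmp9* (0 to 0.12 FPKM). *Mmp10* was at 0.637, 0.562 and 0.617 FPKM in WT and at 0.0722, 0.151 and 0.277 FPKM in MSTN-KO. These groups did not overlap, and in the fit without a filter its log2 fold change was -0.46 (adjusted p = 0.00923). In that fit *Adam5*, also under the filter and without overlap, was higher in MSTN-KO (0.44, adjusted p = 0.0345). *Adam5* was at 0.0493 to 0.284 FPKM in WT and at 0.466 to 0.761 FPKM in MSTN-KO. Textbook accounts place AP-1, the dimer of FOS and JUN proteins that binds TGACTCA, at the promoters of these inducible MMPs. The promoters are shown for that motif, as the 250 bases before the RefSeq start site in GRCm38.p6, 5′ to 3′ on the strand of the gene, with capitals on TGACTCA (read on either strand) and on the TATA box letters TATAAA.

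Mmp3 (chr9:7445572-7445821, plus strand): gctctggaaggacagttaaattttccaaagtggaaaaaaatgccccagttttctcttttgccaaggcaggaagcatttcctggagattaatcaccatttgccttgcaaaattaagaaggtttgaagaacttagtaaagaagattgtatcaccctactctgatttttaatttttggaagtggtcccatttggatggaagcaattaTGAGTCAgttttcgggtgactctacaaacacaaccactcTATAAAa
Mmp10 (chr9:7502092-7502341, plus strand): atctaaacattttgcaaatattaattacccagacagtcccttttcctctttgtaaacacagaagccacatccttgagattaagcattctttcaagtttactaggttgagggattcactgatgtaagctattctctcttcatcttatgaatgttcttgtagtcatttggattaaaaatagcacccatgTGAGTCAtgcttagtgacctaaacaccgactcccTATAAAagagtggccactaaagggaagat
Mmp13 (chr9:7272264-7272513, plus strand): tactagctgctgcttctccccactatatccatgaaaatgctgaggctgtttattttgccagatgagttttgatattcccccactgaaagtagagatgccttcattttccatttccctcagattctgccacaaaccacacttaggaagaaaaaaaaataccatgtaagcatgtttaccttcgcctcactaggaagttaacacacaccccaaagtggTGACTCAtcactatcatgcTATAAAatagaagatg

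The motif TGACTCA lay 46, 63 and 35 bases before the start of *Mmp3*, *Mmp10* and *Mmp13*, with TATAAA at 7, 29 and 16 bases. Promoter windows of 250 bases before and 50 after the start were found in RefSeq for 34 of the 55 family genes, as 37 windows. TGACTCA was in 5 of them (13.5%, against 5.2% of 32851 windows of all genes), TATAAA in 6 (16.2% against 13.6%), and the E-box letters CANNTG in 73% against 72.3%. The 5 windows include those of *Mmp3*, *Mmp10* and *Mmp13*, for which TGACTCA was picked, and the others are of *Adam19* and *Adam1b*. The 13.5% was therefore partly fixed by the choice of motif. The E-box is the motif bound by MYOD1 and related factors, and its 6 letters with 2 free positions occur in most windows. Member windows had a median of 18 CG dinucleotides, beside 7 over all windows. These are matches of letters, and binding was not measured.

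Among the ADAMs, *Adam23* was the only 1 of 7 tested genes that passed the test (14.3%, against 17.7% of all tested genes). It had passed the filter only through MSTN-KO libraries. *Adam23* (ENSMUSG00000025964, chromosome 1, 63445891 to 63596276, plus strand) encodes a catalytically inactive ADAM of the nervous system that binds integrins and LGI proteins. Its expression was 0.0705, 0.0631 and 0.0318 FPKM in WT and 3.77, 4.03 and 3.83 FPKM in MSTN-KO. The gene was near 0 in all WT libraries and detected at similar levels in all MSTN-KO libraries, and the ratio of the group means was 70.3. On the log2(FPKM + 1) scale the change was 2.21 (SE 0.16, adjusted p = 1.02e-06), and with a pseudocount of 0.1 it was 4.69. Leaving out any 1 library gave 2.19 to 2.22. The median log2 fold change on chromosome 1 was -0.25. Of the 8 tested genes within 1 Mb, 1 was higher in MSTN-KO (*Nrp2*) and 0 were lower.

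The other tested ADAMs, which have an active protease domain, did not pass the test. *Adam15* was at 47.4, 40.7 and 39.5 FPKM in WT and at 48.1, 48.0 and 55.2 FPKM in MSTN-KO (log2 fold change 0.24, SE 0.13, adjusted p = 0.206). *Adam9*, a sheddase of HB-EGF, was at 25.5, 25.1 and 26.3 FPKM in WT and at 31.5, 29.4 and 20.2 FPKM in MSTN-KO (0.05, adjusted p = 0.845). In *Adam9* the MSTN-KO libraries lay on both sides of WT. *Adam10*, the protease of Notch receptors and N-cadherin, was at 13.04, 13.9 and 14.4 FPKM in WT and at 11.4, 14.3 and 7.62 FPKM in MSTN-KO (-0.32, adjusted p = 0.245). *Adam17*, the TNF-converting enzyme, was at 12.7, 11.2 and 11.8 FPKM in WT and at 10.7, 11.7 and 7.31 FPKM in MSTN-KO (-0.26, adjusted p = 0.295). MSTN-KO replicate 3 had the lowest value of both genes. *Adam19*, or meltrin beta, was at 12.1, 11.8 and 9.37 FPKM in WT and at 7.45, 10.02 and 7.43 FPKM in MSTN-KO (-0.38, adjusted p = 0.115). *Adam8* had a log2 fold change of -0.05. *Adam12*, or meltrin alpha, which takes part in myoblast fusion, stayed at 0.360 to 0.685 FPKM over the 6 libraries with overlapping groups and was not tested.

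Of the 8 tested ADAMTS genes 3 were upregulated (background 8.78%) and 1 was downregulated (background 8.96%), and *Adamts2* and *Adamts5*, both among the 3, had passed the filter only through MSTN-KO. *Adamts2* (ENSMUSG00000036545, chromosome 11, 50602084 to 50807573, plus strand) encodes the procollagen N-proteinase, which removes the amino-terminal propeptide of fibrillar collagens. It was at 0.927, 0.819 and 0.658 FPKM in WT and at 5.02, 6.46 and 5.19 FPKM in MSTN-KO. Every MSTN-KO library was above every WT library, with a ratio of the means of 6.94 and a log2 fold change of 1.86 (SE 0.16, adjusted p = 6.63e-06). *Adamts14*, which encodes a related procollagen N-proteinase, was at 14.1, 11.2 and 10.7 FPKM in WT and at 8.27, 9.03 and 8.64 FPKM in MSTN-KO. Its groups did not overlap, and the log2 fold change of -0.42 (SE 0.15, adjusted p = 0.0631) missed the threshold. The sum of both genes was 14.98, 12.0 and 11.3 FPKM in WT and 13.3, 15.5 and 13.8 FPKM in MSTN-KO. *Adamts2* took 6.18%, 6.80% and 5.81% of it in WT and 37.8%, 41.7% and 37.5% in MSTN-KO. This pair was chosen after its values had been seen and its share was not tested.

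*Adamts1* and *Adamts5* are neighbours on chromosome 16, 53059 bases apart and with 0 protein-coding genes between them, and both encode proteases of versican and aggrecan. *Adamts1* (ENSMUSG00000022893, 85793827 to 85803113, minus strand) was at 3.59, 3.18 and 3.42 FPKM in WT and at 14.7, 12.2 and 9.69 FPKM in MSTN-KO. The lowest MSTN-KO value was above the highest WT value, the ratio of the means was 3.59, and the log2 fold change was 1.57 (SE 0.16, adjusted p = 3.30e-05). *Adamts5* (ENSMUSG00000022894, 85856173 to 85901828, minus strand) was at 0.689, 0.594 and 0.656 FPKM in WT and at 1.61, 2.09 and 1.12 FPKM in MSTN-KO. Its log2 fold change was 0.64 (SE 0.18, adjusted p = 0.0270). The adjusted p was between 0.0568 and 0.0921 when WT replicate 1, 2 or 3 or MSTN-KO replicate 1 or 2 was left out, so the call held in 1 of these 6 fits.

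The promoters of *Adam23*, *Adamts2* and *Adamts1*, the family genes with the largest rises, are shown in the same way, with capitals on any of the 3 motifs named above, read on either strand.

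Adam23 (chr1:63445641-63445890, plus strand): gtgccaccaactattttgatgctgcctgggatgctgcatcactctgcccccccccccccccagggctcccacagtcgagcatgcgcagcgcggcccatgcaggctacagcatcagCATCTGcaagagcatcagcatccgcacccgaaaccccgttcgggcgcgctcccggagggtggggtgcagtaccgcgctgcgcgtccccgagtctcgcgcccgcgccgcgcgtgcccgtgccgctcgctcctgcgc
Adamts2 (chr11:50601835-50602084, plus strand): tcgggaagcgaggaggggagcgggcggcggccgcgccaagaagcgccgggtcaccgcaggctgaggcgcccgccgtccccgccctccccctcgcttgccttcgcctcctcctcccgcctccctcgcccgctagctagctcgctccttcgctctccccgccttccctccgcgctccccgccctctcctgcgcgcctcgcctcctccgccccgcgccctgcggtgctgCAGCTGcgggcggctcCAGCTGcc
Adamts1 (chr16:85803114-85803363, minus strand): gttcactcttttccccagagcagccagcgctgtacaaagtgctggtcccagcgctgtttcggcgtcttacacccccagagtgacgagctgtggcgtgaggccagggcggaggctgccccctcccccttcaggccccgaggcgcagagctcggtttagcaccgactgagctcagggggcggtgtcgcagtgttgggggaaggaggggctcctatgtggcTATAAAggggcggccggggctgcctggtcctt

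TATAAA was found 32 bases before the start of *Adamts1*. CANNTG was found 135 bases before the start of *Adam23* and 8 and 24 bases before that of *Adamts2*. TGACTCA was in none of these 3 sequences.

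*Adamts4* (ENSMUSG00000006403, chromosome 1, 171250421 to 171260637, plus strand), the third of the aggrecanases here, was downregulated. It was at 14.0, 10.01 and 9.67 FPKM in WT and at 4.89, 5.02 and 4.81 FPKM in MSTN-KO. WT replicate 1 was the highest, and all WT libraries were above the MSTN-KO libraries, which lay close together. The WT mean was 2.29 times the MSTN-KO mean, and the log2 fold change was -1.03 (SE 0.16, adjusted p = 0.000876). The median on its chromosome was -0.25, and of the 25 tested genes within 1 Mb 0 were higher and 3 lower in MSTN-KO, with a median of -0.15. Without WT replicate 1 it was -0.87 and the gene was no DEG, while the adjusted p stayed at or below 0.00670 in all fits that left out 1 library. Summed over *Adamts1*, *Adamts4* and *Adamts5*, the level was 18.3, 13.8 and 13.7 FPKM in WT and 21.2, 19.3 and 15.6 FPKM in MSTN-KO, with overlapping groups. *Adamts4* took 76.6%, 72.6% and 70.3% of it in WT and 23.1%, 26.1% and 30.8% in MSTN-KO, and *Adamts1* took 19.7%, 23.1% and 24.9% in WT and 69.3%, 63.1% and 62.0% in MSTN-KO. This sum was also chosen after the values had been seen and was not tested.

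**Figure D4:**
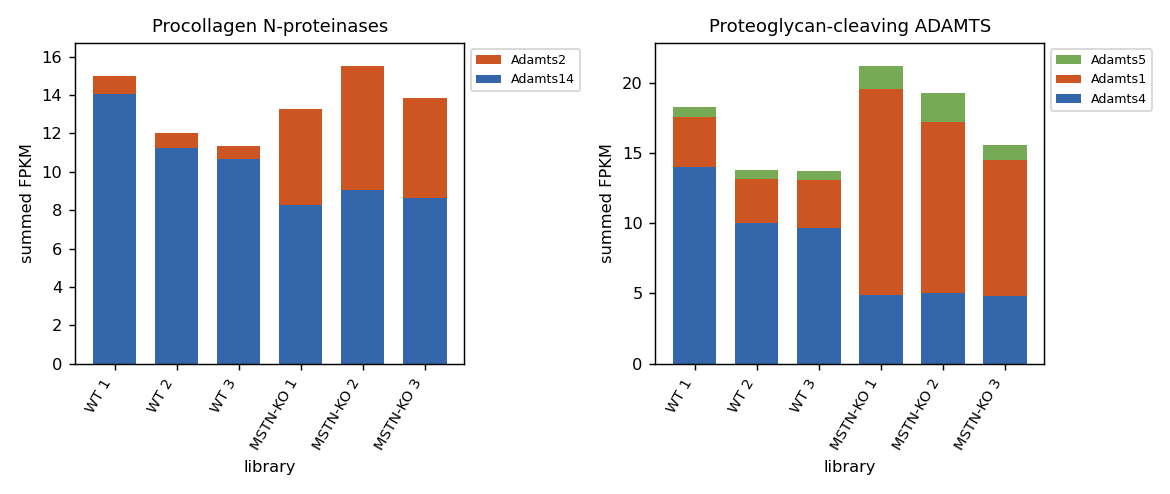
Summed FPKM (bars from 0) of *Adamts2* and *Adamts14* (left) and of *Adamts1*, *Adamts4* and *Adamts5* (right) in each of the 6 libraries, stacked by gene. The *Adamts2* and *Adamts1* sections are larger in all 3 MSTN-KO libraries, and the *Adamts4* section falls from 9.67 to 14.0 FPKM in WT to between 4.81 and 5.02 FPKM.

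The other ADAMTS genes past the filter were not called. *Adamts6* was at 7.15, 7.47 and 9.06 FPKM in WT and at 5.46, 6.72 and 3.21 FPKM in MSTN-KO, without overlap (log2 fold change -0.58, SE 0.21, adjusted p = 0.0706). It lies on chromosome 13, whose tested genes had a median of -0.34. *Adamts7*, a protease of COMP, was at 18.8, 14.3 and 10.7 FPKM in WT and 14.2 to 15.4 FPKM in MSTN-KO (0.05), and *Adamts10*, which binds fibrillin microfibrils, was at 2.07 to 2.44 FPKM in all libraries (0.04). Of the ADAMTS-like genes, *Adamtsl4* (ENSMUSG00000015850, chromosome 3, 95676201 to 95687917, minus strand), a fibrillin-binding matrix protein, was at 4.79, 3.12 and 2.54 FPKM in WT and at 7.64, 4.50 and 7.38 FPKM in MSTN-KO. Its groups overlapped, and the log2 fold change was 0.74 (SE 0.22, adjusted p = 0.0311). The adjusted p was above 0.05 in 4 of the 6 fits that left out 1 library, 0.108 without WT replicate 3 among them. *Adamtsl5* was at 28.4 to 39.3 FPKM over the 6 libraries (-0.17), and *Adamtsl3* reached 1.36 FPKM in MSTN-KO replicate 1 only (0.23). *Adamtsl2* was at 0.0605 to 0.141 FPKM in WT and listed at 0 in all 3 MSTN-KO libraries.

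Of the 9 called genes, 7 kept an adjusted p under 0.05 without WT replicate 3, the library with the lowest differentiation markers in WT. The exceptions were *Adamts5* (0.0568) and *Adamtsl4* (0.108). *Adam23*, *Adamts2*, *Adamts1*, *Mmp2*, *Mmp19* and *Adamts4* kept it in all 16 alternatives run. Among the WT libraries, replicate 1 had the highest value in 72.4% of the 29 tested family genes, against 46.9% of all tested genes, and replicate 3 the lowest in 69.0% against 38.4%.

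**Figure D5:**
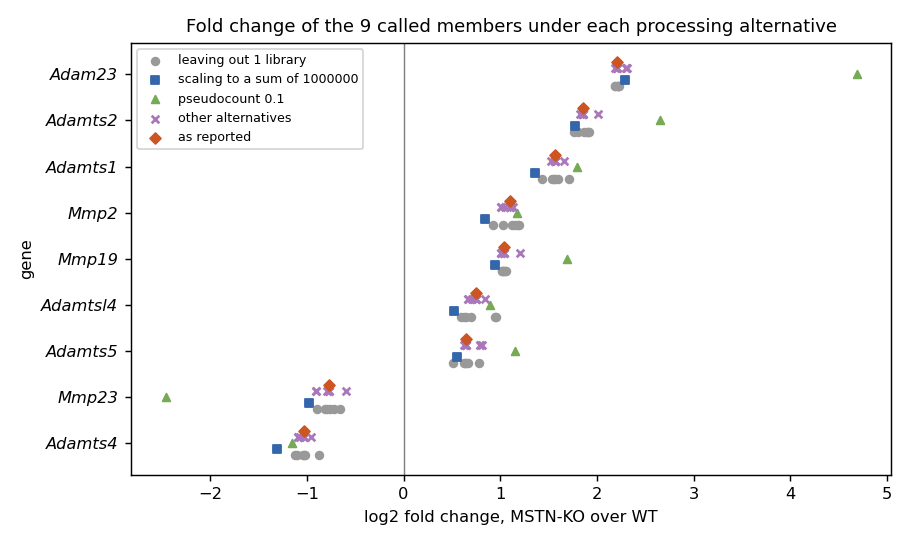
Log2 fold change (MSTN-KO against WT) of the 9 called family genes as reported (diamonds) and under each alternative, with separate symbols for leaving out 1 library, scaling to a sum of 1000000, a pseudocount of 0.1 and the others. *Adam23*, *Adamts2* and *Adamts1* stay above 1 in every setting shown, and *Adamts4* and *Mmp23* stay below 0.

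Related genes were counted from 8 lists of activators, inhibitors, partners and substrates of these proteases, other matrix proteases and AP-1 subunits. The lists held 58 tested genes, of which 11 were higher (background 8.78%) and 13 lower (background 8.96%) in MSTN-KO at an adjusted p under 0.05. Leaving out 1 library gave 5 to 13 higher and 10 to 14 lower genes, and the 5 came without WT replicate 2, WT replicate 3 or MSTN-KO replicate 1. Of the plasminogen activation system, whose product plasmin activates several pro-MMPs, 3 of 9 tested genes were downregulated (background 8.96%) and 0 upregulated, and the count was 3 in each fit that left out 1 library. *Plau*, which encodes urokinase, was at 128, 131 and 121 FPKM in WT and at 50.9, 53.4 and 51.6 FPKM in MSTN-KO (log2 fold change -1.27, adjusted p = 7.67e-06). Its inhibitor *Serpinb2* was lower as well (-0.98, adjusted p = 0.00453).

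None of the 5 tested activators and inhibitors outside the families was called by limma, and 1 had an unadjusted p under 0.05. *Furin*, the convertase that removes the prodomain of MMP14 and of many ADAMs, had a log2 fold change of -0.08 (adjusted p = 0.728), and *Reck*, a membrane inhibitor of MMPs, was at 0.605 to 0.730 FPKM in WT and 0.914 to 1.14 FPKM in MSTN-KO (0.27, adjusted p = 0.280). *Bmp1*, the procollagen C-proteinase, was at 75.4, 63.9 and 54.3 FPKM in WT and at 47.6, 51.4 and 50.6 FPKM in MSTN-KO (-0.35, adjusted p = 0.0918). *Pcolce2*, an enhancer of procollagen C-proteinase activity, was upregulated (0.62, adjusted p = 0.00513) and was 1 of 2 tested genes of its list. Of the 7 other matrix proteases tested, *Htra1* (0.71, adjusted p = 0.00165) and the cathepsin *Ctsz* (0.44, adjusted p = 0.0243) were higher and the cathepsin *Ctsl* (-0.39, adjusted p = 0.0449) was lower.

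Of the 8 tested partners of ADAM10 and ADAM17, 2 were higher (1 to 2 when 1 library was left out, background 8.78%) and 3 lower (2 to 3, background 8.96%). The tetraspanins *Tspan33* (-1.05, adjusted p = 0.00356) and *Tspan15* (-0.70, adjusted p = 0.0152), which escort ADAM10, were lower. Of the other tetraspanins in this list, *Tspan14* was lower (-0.61, adjusted p = 0.00840) and *Tspan5* was higher (0.48, adjusted p = 0.0294). *Tspan33* had a mean of 1.64 FPKM in WT and 0.254 FPKM in MSTN-KO. It passed the filter only through WT libraries, so its lower value in MSTN-KO was partly fixed by the filter. With the filter on the mean *Tspan33* was not tested, and 2 of the partners were lower. *Rhbdf1*, an iRhom that escorts ADAM17, was higher (0.61, adjusted p = 0.00701). *Rhbdf2* (-0.21, adjusted p = 0.349) and *Frmd8* (-0.34, adjusted p = 0.132) of the same list were not called. Of 15 tested substrates of ADAM shedding, 3 were higher and 6 lower, against the same backgrounds. Leaving out 1 library gave 0 to 4 higher and 4 to 7 lower, with 0 higher without WT replicate 2, WT replicate 3 or MSTN-KO replicate 1. The EGF receptor ligand *Areg* (12.4, 17.7 and 15.3 FPKM against 4.95, 4.91 and 5.61 FPKM; -1.38, adjusted p = 6.26e-05), the hyaluronan receptor *Cd44* (-0.92, adjusted p = 0.00232) and the chemokine *Cx3cl1* (-0.90, adjusted p = 0.00359) had the largest falls of this list. Of the 4 tested matrix substrates of ADAMTS proteases 1 was higher (background 8.78%) and 0 lower. This was *Fbln1* (0.41, adjusted p = 0.0334). The others fell without being called, *Fn1* (-0.41, adjusted p = 0.125), *Fbln2* (-0.36, adjusted p = 0.0663) and versican *Vcan* (-0.00346, adjusted p = 0.993). Of 8 tested AP-1 subunits 2 were upregulated (background 8.78%, 2 to 3 when 1 library was left out) and 0 downregulated. *Fos* was at 2.31, 2.89 and 1.26 FPKM in WT and at 19.3, 15.96 and 16.6 FPKM in MSTN-KO (2.57, adjusted p = 1.43e-06), and *Fosb* had a log2 fold change of 1.65 (adjusted p = 4.49e-05). The values of *Fbln1*, *Ctsl*, *Ctsz*, *Tspan15* and *Tspan5* passed the threshold in only part of the fits that left out 1 library.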

How the data were processed

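The data were RNA-seq libraries of C2C12 myoblasts, 3 WT and 3 MSTN-KO by their genotype label. The authors sequenced the RNA on an Illumina HiSeq system and deposited FPKM values per gene, 1 library per file. The submitters' processing notes name Bowtie 0.12.2 and the build mm8, and the gene annotation, gene filter and use of strand are not given in the sources used here. Number of fragments and counting error are therefore unknown.

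Symbols and positions came from GENCODE M21 (GRCm38), and 14454 of 14548 identifiers had a symbol. Genes that reached 1 FPKM in some library were fitted as log2(FPKM + 1) with limma 3.58.1 in R 4.3.3 (eBayes with trend, 1 coefficient for the group), with Benjamini-Hochberg adjustment over all 10837 tested genes. DEGs followed the cutoffs of the paper. Family genes were named if the adjusted p was under 0.05 and the mean at least 1 FPKM. The TIMPs, *Mmp2*, *Mmp14*, *Adam9*, *Adam10*, *Adam12*, *Adam15*, *Adam17* and *Adam19* were named whatever their result. Of each related list up to 3 called genes with the largest change were named, plus *Reck*, *Bmp1*, *Furin*, *Plau* and *Fos*. The values of 1 further gene of this rule are not reported here. Further family genes and related genes were named after their values had been seen. The families and lists were chosen with earlier results of these data known. Relative depth was read from values under 0.1 FPKM. Promoter letters came from RefSeq (GRCm38.p6). Tested on simulated data with 200 of 10837 genes shifted by 2 on the log2 scale, the fit recovered 97.5%, with 7 false calls. The shifted genes had a WT mean of log2(FPKM + 1) of at least 1, and the simulated noise was normal and independent. The share recovered therefore does not describe smaller changes or genes with lower WT levels. As alternatives, the pseudocount was set to 0.1, the filter was dropped or applied to the mean, the trend was dropped, libraries were quantile normalized or scaled (percentile 75, or a sum of 1000000), length and GC content were corrected with mgcv 1.9.3, a replicate block was fitted alone or with that correction, and each library was left out. Figures and summaries used Python 3.11.15, pandas 2.3.3 and matplotlib 3.10.9.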

Additional observations from a re-analysis of the deposited data

How the results depend on the processing

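Over the alternatives, 399 values of log2 fold changes of family genes kept their direction and side of the threshold, 29 passed it newly, 14 lost it and 20 changed sign, all 20 in genes that were not called. The cause was not tested, except that fewer libraries or other genes entered some fits by construction. A pseudocount of 0.1 gave 254 upregulated and 500 downregulated DEGs, with 2 family genes among the latter. A filter on the mean left 1 lower family gene by adjusted p, since *Mmp23* was not in it. Quantile normalization gave 0 downregulated DEGs in the families and 5 lower family genes by adjusted p, scaling by percentile 75 gave 4 lower, and the length and GC correction gave 5 lower. Scaling to a sum of 1000000 gave 510 downregulated DEGs and 350 higher and 2367 lower genes by adjusted p. In the families it gave 3 upregulated DEGs, 10 lower genes and a median log2 fold change of -0.29, and in the related lists 4 higher and 23 lower genes.

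The replicate numbers did not pair the libraries (deviations of same-numbered libraries correlated with r of -0.0153, -0.128 and -0.142 across genes). With the replicate number as a block, 7 family genes were higher and 3 lower by adjusted p, the third being *Adamts6* (adjusted p = 0.0487), with 5 and 1 among the DEGs. With the block and the length and GC correction together, 6 were lower.

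Leaving out 1 library at a time gave 0 to 1 downregulated and 4 to 5 upregulated DEGs in the families, 5 to 7 higher and 1 to 4 lower family genes, 419 to 1175 higher and 611 to 1233 lower genes in all, and 5 to 13 higher related genes. The fewest genes in all came without WT replicate 2. In these fits *Timp1* ranged from -0.13 to 0.053, *Timp3* from -0.065 to 0.045, *Adam9* from -0.066 to 0.24, *Adam8* from -0.17 to 0.063, *Adamts7* from -0.14 to 0.23, *Adamtsl3* from -0.056 to 0.44 and *Furin* from -0.16 to 0.058 on the log2 scale. The sum scaling turned *Adam9* (-0.22), *Adam15* (-0.038), *Adamts10* (-0.17) and *Adamts7* (-0.22), and percentile 75 turned *Adamts7* (-0.00193). The length and GC correction, with and without the block, turned *Timp3* (0.063), *Adamts10* (-0.00176) and *Adamts7* (-0.00918). Differences among genes near 1 FPKM were limited by depth, which is unknown.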
